A study of Mus musculus with 18 samples.

Results

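Chemokines and their receptors were followed gene by gene through the early stages of acute myocardial infarction (AMI). A gene was taken as a member by its symbol, namely Ccl, Cxcl, Ccr or Cxcr with a number, Ackr1 to Ackr4, Cx3cl1, Cx3cr1, Pf4, Ppbp, Xcl1 or Xcr1. Of the 24419 symbols in the expression table, 64 met this rule, of which 41 are ligands and 23 are receptors. RNA came from hearts of 18 male C57BL/6 mice aged 8 weeks, with 3 mice in a sham group and 3 in each of 5 AMI groups, killed 10 min, 1 h, 6 h, 24 h or 72 h after the proximal left anterior descending coronary artery was ligated under sodium pentobarbital (50 mg/kg). The infarcted myocardium was sampled from each AMI mouse. The sham group is named control in the labels, and neither the operation it had nor the part of the heart taken from it is described there. Each mouse was sampled once, and a single sham group served for every time point, so the comparisons against sham share the same 3 mice. In a whole piece of tissue, fewer cells of a type cannot be told apart from less RNA per cell.

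Chemokines are small secreted proteins that guide leukocytes through blood vessel walls and tissue by binding receptors coupled to G proteins. They are named by the spacing of their first cysteines (CC, CXC, CX3C and C), and the receptors are named after the class they bind. The CXC ligands with an ELR motif before the cysteines attract neutrophils through Cxcr2, while several CC ligands attract monocytes through Ccr2 and Ccr1. Atypical receptors such as Ackr3 and Ackr4 bind and remove chemokines without coupling to G proteins. In the infarcted heart, this system is best known for the early entry of neutrophils and the later entry of monocytes.

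Expression was given as FPKM, the number of sequenced fragments scaled to transcript length and library size. Being scaled by length, FPKM levels of different genes can be compared. A gene was tested when at least 1 of the 18 mice had an FPKM of at least 1, which left 13333 genes. Among the members, 41 were tested, 30 ligands and 11 receptors, and the other 23 stayed below this level in every mouse. Tests were made with limma on log2(FPKM + 1), so every difference given in log2 units is a difference of mean log2(FPKM + 1) between 2 groups, followed by its standard error (SE). This scale understates the change of genes near 0. A member was called, and is said to have risen or fallen, when its p-value adjusted over all genes tested was under 0.05. With 3 mice against 3, an exact permutation test of a single gene could not go below p = 0.1. Values for the 3 mice of a group are written in the order mouse 1, mouse 2 and mouse 3, and mice of the same number in different groups are unrelated.

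The table holds no read counts, so library depth was not known directly. The ratios of the lowest FPKM placed the libraries between 0.815 and 1.315 times the depth of sham mouse 1, and the 72 h libraries, at 1.244 to 1.315, were the deepest as a group. The summed FPKM of 5 cardiomyocyte markers ran from 39099 to 41246 in the sham mice and from 16216 to 19775 at 72 h, when all 5 were called lower. Neutrophil markers, of which 5 of 6 were in the table (Ly6g was not analysed here), summed to 2.14 to 4.83 FPKM in the sham mice, where Stfa2l1 was listed at 0 in each mouse. Their sum was 5.24 to 23.1 in the 10 min mice and 16.2 to 29.3 in the 1 h mice. It then ran from 111 to 957 at 6 h, from 40.1 to 925 at 24 h, and from 47.1 to 56.8 at 72 h. The 5 monocyte markers summed to 5.42 to 6.66 FPKM in the sham mice, 17.3 to 56.5 at 6 h, 39.9 to 205 at 24 h and 92.0 to 122.7 at 72 h. The 6 macrophage markers stood at 140 to 158 FPKM in the sham mice, 126 to 147 at 6 h, 230 to 273 at 24 h and 1252 to 1558 at 72 h. The 4 fibroblast markers summed to 174 to 181 FPKM in the sham mice and 1103 to 1445 at 72 h, when all 4 were called higher. The part that such shifts in cell content had in the changes of chemokine genes was not tested.

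Of the 41 tested members, 38 were called at 1 or more time points against sham, 27 ligands and all 11 receptors, where 84.8% of all genes tested were called at 1 or more of these times. Ccl21a, Ccl21b and Ccl25 were the 3 that were called at none. The highest group mean was at 72 h for 19 tested members, at 24 h for 12 and at 6 h for 6, while 2 peaked at 10 min, 2 at 1 h and none in the sham group. A member could pass the level for testing through its highest group alone, so these peak counts depend on that filter. Ccr10, with its highest mean in the sham group (0.608 FPKM), was left out by it. The peak groups of all genes are not given here, so no excess can be read. At 10 min no member was called by limma, while 0.346% of all genes tested were called, 0.248% higher and 0.0978% lower. At an unadjusted p under 0.05, 4 of 29 tested ligands and 2 of 11 receptors differed from sham at 10 min. The share of all genes at that threshold is not given here, so no excess can be read from these counts. At 1 h 5 of 30 ligands were called higher and no member lower, against 0.722% of all genes called, 0.669% higher and 0.0526% lower. No receptor was called by limma at 1 h, and 4 had an unadjusted p under 0.05, again without the share of all genes beside it.

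At 6 h 16 ligands and 5 receptors were called higher and 1 ligand and 2 receptors lower, where 28.3% of all genes were called, 11.6% higher and 16.8% lower. At 24 h the counts were 16 ligands and 6 receptors higher with 1 ligand and 2 receptors lower, where 37.6% of all genes were called, 26.2% higher and 11.4% lower. At 72 h 22 ligands and 9 receptors were called higher and 2 ligands and 1 receptor lower, where 77.3% of all genes were called, 53.1% higher and 24.2% lower. The median log2 fold change of the tested ligands was 0.98 at 6 h, 1.37 at 24 h and 1.49 at 72 h, beside -0.08, 0.13 and 0.29 for all genes. For the tested receptors the medians were 0.46, 1.14 and 2.50. Leaving out sham mouse 1, 2 or 3 each left 14 members higher and 1 lower at 24 h in place of 22 and 3. Over all genes, these fits called 1628, 1718 and 2114 genes at 24 h in place of 5012. The balance of directions also moved with the scaling of the libraries. At 6 h the members numbered 21 higher and 3 lower as deposited, 21 and 2 after median-of-ratios scaling, and 20 and 3 after quantile normalization. Over all genes these fits called 3776, 3508 and 3748, of which 40.9%, 54.8% and 43.3% were higher. At 24 h the member counts were 22 and 3, then 21 and 5, then 17 and 5 in the same order, where all genes were 18.5% higher and 18.2% lower, then 15.8% and 20.4%. At 72 h they were 31 and 3, then 30 and 5, then 28 and 5, and the median of all genes moved from 0.29 to 0.03 and to -0.12 on the log2 scale. Of all genes at 72 h, 39.1% were then higher and 36% lower after median-of-ratios scaling, and 32.1% and 43.4% after quantile normalization.

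Several calls changed with the scaling. Quantile normalization ended the 24 h calls of Ccl3 (adjusted p = 0.0608), Ccl4 and Cxcl3 (adjusted p = 0.0543 for each), Cxcr4 (adjusted p = 0.0568) and Ccl8 (adjusted p = 0.115), and the 6 h call of Cxcr6 (adjusted p = 0.0506). Median-of-ratios scaling ended the 24 h call of Ccl8 (adjusted p = 0.0542) and the 6 h call of Cxcl12 (adjusted p = 0.114). With that scaling Cxcl12 passed as lower at 72 h (-0.34 log2 units, adjusted p = 0.0162), and Cxcl14 passed as lower at 24 h after either scaling (adjusted p = 0.0328 and 0.0237).

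**Figure D1:**
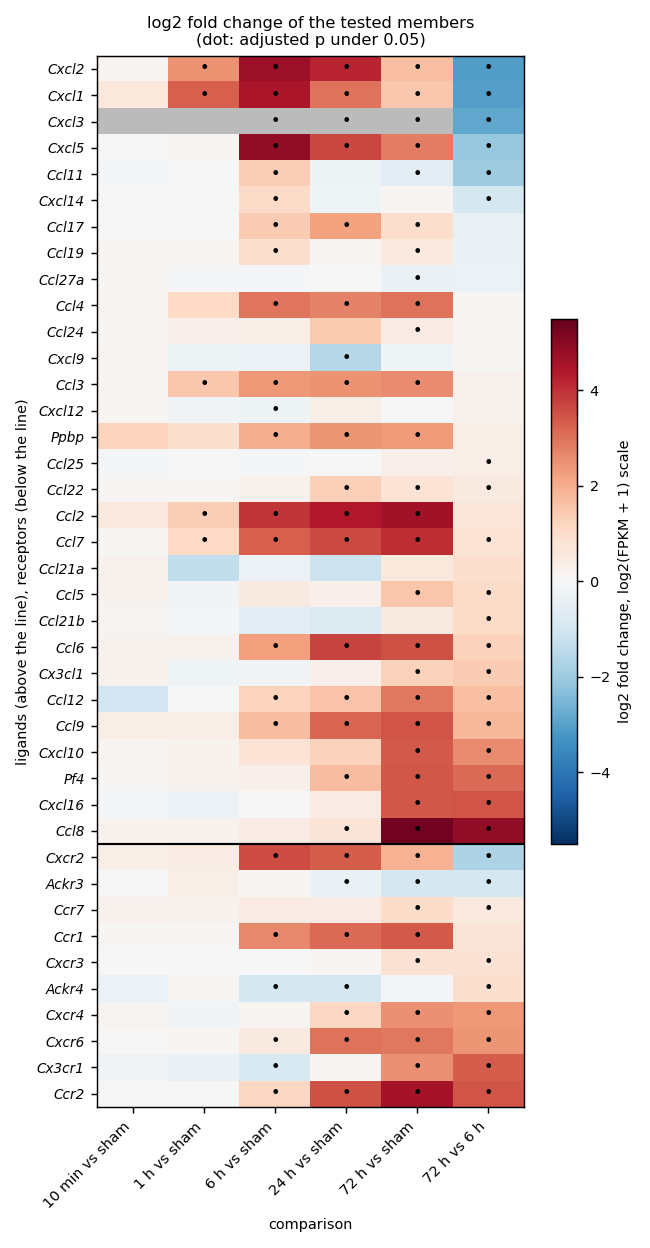
Heat map of the log2 fold change, on the log2(FPKM + 1) scale, of tested members (vertical axis, ligands above the line and receptors below it) in 6 comparisons (horizontal axis). Red is higher and blue lower in the group named first, a dot marks an adjusted p under 0.05 (limma), and grey marks Cxcl3 against sham, where all 3 sham mice are listed at 0. Within each class genes are ordered by the 72 h against 6 h difference, which runs from -3.09 for Cxcl2 to 4.88 for Ccl8.

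Cxcr2 is the receptor that brings neutrophils into tissue. Of its ligands, Cxcl1 and Cxcl2 were called from 1 h, Cxcl3 and Cxcl5 from 6 h, and all 4 were lower at 72 h than at 6 h. Cxcl1, made by stromal cells, endothelium and macrophages under inflammation, had 1.14, 1.04 and 1.37 FPKM in the sham mice and 3.18, 2.02 and 1.701 in the 10 min mice. At 1 h Cxcl1 had 19.3, 19.4 and 21.3 FPKM. Later it had 89.9, 23.5 and 53.7 FPKM in the 6 h mice and 8.81, 10.3 and 45.4 in the 24 h mice. At 72 h Cxcl1 had 3.55, 7.04 and 5.02 FPKM. The 3 mice of every AMI group lay above all sham mice, and at 6 h the levels spanned a range of 23.5 to 89.9 FPKM. Against sham, Cxcl1 was not called at 10 min (0.57 log2 units, SE 0.16, adjusted p = 0.187), rose at 1 h (3.27 log2 units, SE 0.09, adjusted p = 4.39e-06) and 6 h (4.51 log2 units, SE 0.42, adjusted p = 0.000853), and was still higher at 24 h (2.99 log2 units) and 72 h (1.47 log2 units, adjusted p = 0.000101). It was the only one of the 5 ligands called at 1 h whose call also held with all 18 mice in 1 fit, where the adjusted p was 0.614 for Ccl2, 0.76 for Ccl3, 0.446 for Ccl7 and 0.741 for Cxcl2. The log2 fold changes of Ccl2, Ccl3, Ccl7 and Cxcl2 were the same in both fits.

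Cxcl2, which acts on the same receptor and comes mainly from macrophages and neutrophils, had 0.149, 0.126 and 0.1099 FPKM in the sham mice and 4.12, 6.08 and 6.03 in the 1 h mice. At 6 h Cxcl2 had 64.9, 10.8 and 32.9 FPKM, and 13.8, 2.33 and 174 in the 24 h mice. At 72 h Cxcl2 had 2.79, 2.88 and 1.93 FPKM. All AMI mice from 1 h on exceeded the sham mice, while at 24 h the levels ran from 2.33 to 174 FPKM. It rose at 1 h (2.49 log2 units, SE 0.13, adjusted p = 8.93e-05), 6 h (4.72 log2 units, SE 0.54, adjusted p = 0.00177), 24 h (4.18 log2 units, SE 1.26, adjusted p = 0.0385) and 72 h (1.63 log2 units). The 24 h call was lost without any 1 of the 3 sham mice (adjusted p = 0.0981 to 0.104) and without 24 h mouse 1 (adjusted p = 0.0641). Cxcl3, a close relative, was listed at 0 in all sham and 10 min mice and in 2 of the 1 h mice, with 0.0435 FPKM in 1 h mouse 2. It then had 33.2, 4.74 and 17.5 FPKM in the 6 h mice and 17.9, 1.19 and 156 in the 24 h mice. At 72 h Cxcl3 had 0.668, 1.71 and 1.13 FPKM. No fold is given against a group listed at 0, and the limma test called it higher at 6 h (adjusted p = 0.00371), 24 h (adjusted p = 0.0456) and 72 h (adjusted p = 0.000276). Its 24 h call was lost without any 1 of the sham mice (adjusted p = 0.11 to 0.117) and without 24 h mouse 1 (adjusted p = 0.0885).

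Cxcl5, an ELR ligand made by epithelial and stromal cells, stayed near 0 until 1 h and then showed the largest difference from sham at 6 h of any member for which a fold is given. Its levels were 0.0795, 0.0738 and 0.0786 FPKM in the sham mice and 0.196, 0.123 and 0.1401 in the 1 h mice. At 6 h Cxcl5 had 45.8, 23.6 and 27.3 FPKM. Levels were 7.34, 7.25 and 35.7 FPKM in the 24 h mice and 4.06, 8.39 and 8.34 in the 72 h mice. From 6 h on every AMI mouse lay above every sham mouse (at 6 h 4.89 log2 units, SE 0.22, adjusted p = 7.48e-05, at 24 h 3.66 log2 units, SE 0.55, adjusted p = 0.00587, and at 72 h 2.82 log2 units, SE 0.22, adjusted p = 4.92e-06). Ppbp, a platelet ligand that binds Cxcr2 once it is trimmed, had 0.916, 1.07 and 0.392 FPKM in the sham mice and 4.34, 1.29 and 4.96 in the 10 min mice. At 1 h Ppbp had 1.55, 4.14 and 1.798 FPKM, and 15.3, 2.73 and 4.71 in the 6 h mice. At 24 h Ppbp had 7.98, 2.62 and 24.5 FPKM, and 6.24, 11.9 and 6.57 in the 72 h mice. The 10 min mice were all above the sham mice, but the test was not passed (1.24 log2 units, SE 0.35, adjusted p = 0.187), and it was passed without 10 min mouse 2 (1.67 log2 units, adjusted p = 0.0327). Ppbp rose at 6 h (1.99 log2 units, SE 0.49, adjusted p = 0.0236), 24 h (2.41 log2 units, adjusted p = 0.0257) and 72 h (2.33 log2 units, adjusted p = 2.41e-05). The 6 h call of Ppbp was lost without any 1 of the 3 sham mice, with adjusted p between 0.061 and 0.0829. The 24 h call was lost in the same way (adjusted p = 0.0712 to 0.0825) and without 24 h mouse 1 (adjusted p = 0.0508). Platelet markers summed to 1.96 to 3.29 FPKM in the sham mice, 3.78 to 9.26 in the 10 min mice and 2.65 to 13.9 in the 6 h mice. They summed to 2.11 to 6.62 in the 24 h mice and 1.95 to 2.16 in the 72 h mice, in which Gp6 was listed at 0. None of the 5 tested platelet markers was called at 10 min, 6 h or 24 h, and the part of platelets in the Ppbp level was not tested.

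Cxcr2 itself was first called at 6 h. It had 0.0391, 0.1597 and 0.174 FPKM in the sham mice and 0.598, 0.401 and 0.447 in the 1 h mice. At 6 h Cxcr2 had 40.9, 5.11 and 8.94 FPKM, and 8.33, 2.57 and 42.3 in the 24 h mice. At 72 h Cxcr2 had 2.57, 3.598 and 3.46 FPKM. The 10 min mice, at 0.719, 0.353 and 0.226 FPKM, and the 1 h mice were above the sham mice, but neither group passed the test (1 h 0.399 log2 units, adjusted p = 0.113). The receptor rose at 6 h (3.604 log2 units, SE 0.62, adjusted p = 0.00707), 24 h (3.33 log2 units, SE 0.797, adjusted p = 0.0196) and 72 h (1.898 log2 units, SE 0.12, adjusted p = 1.33e-06), and the 24 h call was lost without any 1 of the sham mice (adjusted p = 0.061 to 0.0704). The summed FPKM of Cxcl1, Cxcl2, Cxcl3, Cxcl5 and Ppbp was 2.18 ± 0.198 in the sham mice and 28.1 ± 2.54 at 1 h (SD, n = 3 mice), while Cxcr2 stood at 0.124 ± 0.0742 and 0.482 ± 0.103. At 6 h the ligand sum was 150.2 ± 92.7 and Cxcr2 18.3 ± 19.6 FPKM, and at 72 h they were 24.1 ± 7.38 and 3.21 ± 0.555. Cxcr1, the other receptor for ELR ligands, reached no more than 0.381 FPKM, in 24 h mouse 3, and was not tested.

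**Figure D2:**
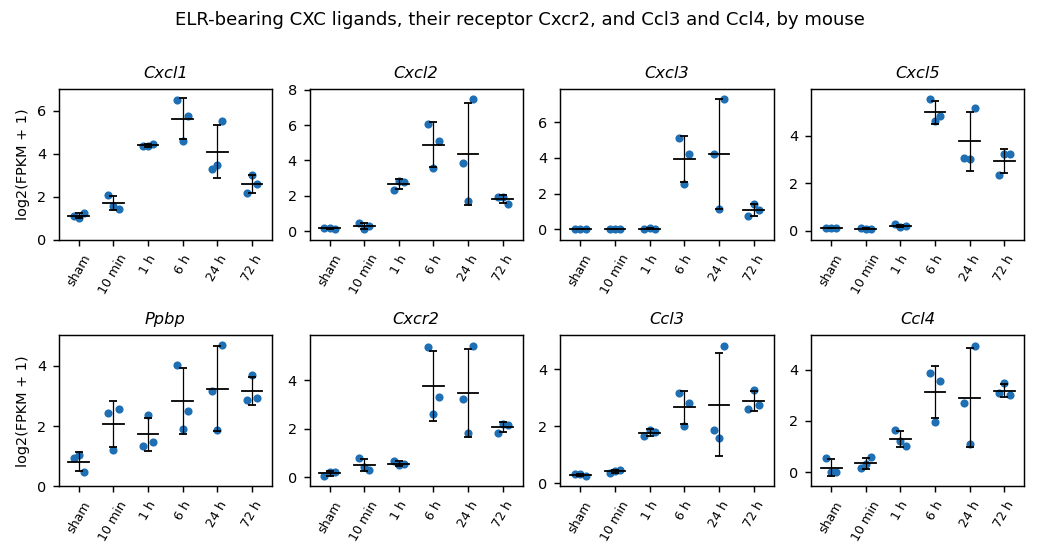
Expression of the ligands of Cxcr2, of Cxcr2 and of Ccl3 and Ccl4 on the log2(FPKM + 1) scale (vertical axis) in the sham and 5 AMI groups (horizontal axis), where points are mice, the horizontal line is the mean and the error bar is the SD of 3 mice. Cxcl1 and Cxcl2 are already raised at 1 h, Cxcr2 from 6 h, and the mice of the 6 h and 24 h groups are widely spread, with Cxcl2 between 2.33 and 174 FPKM at 24 h.

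Cxcl5, Ppbp, Pf4, Cxcl3, Cxcl1 and Cxcl2 lie on the plus strand within 1 stretch of mouse chromosome 5 (mm10), from the start of Cxcl5 at 90759360 to the end of Cxcl2 at 90905938. Cxcl15 lies in the same stretch and stayed below the level for testing. The promoters of Cxcl1, Cxcl2 and Cxcl3 are shown because these neighbours all rose by 6 h and hold the same letters of the kappaB consensus, the motif bound by NF-kappaB. Sequences are those of RefSeq on GRCm38.p6, on the strand of the gene, from 120 to 31 bases before the start of transcription, with kappaB matches in capitals.
Cxcl1, chr5:90891125-90891214: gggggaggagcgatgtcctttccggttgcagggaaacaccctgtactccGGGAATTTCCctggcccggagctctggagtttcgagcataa
Cxcl2, chr5:90903779-90903868: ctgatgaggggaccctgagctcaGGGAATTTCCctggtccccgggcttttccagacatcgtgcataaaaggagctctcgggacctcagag
Cxcl3, chr5:90785981-90786070: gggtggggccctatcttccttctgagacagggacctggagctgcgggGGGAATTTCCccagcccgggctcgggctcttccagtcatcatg
The match GGGAATTTCC starts 71 bases before the start of transcription in Cxcl1, 97 in Cxcl2 and 73 in Cxcl3. Of 27025 genes with a promoter in the table, 1533 (5.67%) held a kappaB match on either strand within 250 bases before the start. Among members, 48 of 64 had a promoter there. Cxcl5 and Ccl2 were not among these 48, so neither was searched. Of the 48 members, 10 held a match. They included 5 of the 22 tested ligands with a promoter, namely Ccl9, Cxcl1, Cxcl2, Cxcl3 and Cxcl10, and 0 of 9 tested receptors. The others were below the level for testing, namely the ligands Ccl1 and Ccl20 and the receptors Ackr2, Ccr3 and Ccr6. Matches were thus also held by receptors and by members that stayed low. A match is a description of the letters and does not show binding.

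The wide spread at 6 h and 24 h followed the same mice for many ligands. At 6 h the summed neutrophil markers were highest in mouse 1 (957 FPKM), lower in mouse 3 (366) and lowest in mouse 2 (111). At 24 h mouse 3 was highest (925 FPKM), mouse 1 next (202) and mouse 2 lowest (40.1). The same order held for 17 of 30 tested ligands at 6 h, for 16 at 24 h and for 11 (36.7%) at both times, beside 20.3%, 16.3% and 6.72% of all genes tested. These 11 were Ccl2, Ccl3, Ccl4, Ccl6, Ccl17, Cxcl2, Cxcl3, Cxcl5, Cxcl10, Pf4 and Ppbp, and among receptors Ccr1 and Cxcr2 did so, 2 of 11. Summed monocyte markers had the same order at both times, with 56.5, 17.3 and 25.6 FPKM at 6 h and 72.1, 39.9 and 205 at 24 h. Summed cardiomyocyte markers had the reverse order, with 33183, 41112 and 36339 FPKM at 6 h and 33311, 34013 and 27008 at 24 h. The spread was thus not particular to neutrophil markers. The orders were read from 3 mice a group, so the shares are descriptions and the part of cell content was not tested.

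Ccr2 is the receptor by which inflammatory monocytes leave the bone marrow and enter tissue. Of its ligands, Ccl2 and Ccl7 were called higher from 1 h to 72 h and Ccl12 from 6 h to 72 h. Ccl2, the leading monocyte attractant, had 3.54, 3.19 and 3.01 FPKM in the sham mice and 10.9, 3.002 and 3.88 in the 10 min mice. At 1 h Ccl2 had 9.53, 8.64 and 11.1 FPKM. Later it had 87.4, 48.2 and 63.3 FPKM in the 6 h mice and 60.1, 54.9 and 204 in the 24 h mice. At 72 h Ccl2 had 82.05, 169 and 76.9 FPKM. All mice from 1 h on were above the sham mice, and 10 min mouse 1, at 10.9 FPKM, stood apart from the other 10 min mice. Ccl2 rose at 1 h (1.34 log2 units, SE 0.102, adjusted p = 0.000663), 6 h (3.95 log2 units, SE 0.197, adjusted p = 0.000119), 24 h (4.39 log2 units, SE 0.46, adjusted p = 0.00255) and 72 h (4.603 log2 units, SE 0.26, adjusted p = 7.56e-07). Ccl7, a second monocyte attractant encoded beside Ccl2 on chromosome 11, had 2.98, 3.21 and 3.31 FPKM in the sham mice and 7.27, 7.11 and 9.32 in the 1 h mice. At 6 h Ccl7 had 47.2, 31.7 and 43.4 FPKM, and 32.99, 43.1 and 94.1 in the 24 h mice. At 72 h Ccl7 had 48.8, 114 and 58.9 FPKM. Its mice likewise lay above the sham mice in each of these groups (1 h 1.09 log2 units, SE 0.11, adjusted p = 0.00325, 6 h 3.31 log2 units, SE 0.15, adjusted p = 6.96e-05, 24 h 3.65 log2 units, 72 h 4.07 log2 units).

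Ccl12, a further ligand of Ccr2 in the mouse, had 2.51, 5.08 and 4.84 FPKM in the sham mice and 3.25, 0.5905 and 1.16 in the 10 min mice. At 1 h Ccl12 had 2.801, 5.62 and 4.03 FPKM, and 10.2, 12.8 and 9.66 in the 6 h mice. At 24 h Ccl12 had 9.44, 16.5 and 17.1 FPKM, and 35.9, 44.3 and 30.6 in the 72 h mice. Groups from 6 h on did not overlap with sham, and it rose at 6 h (1.24 log2 units, SE 0.22, adjusted p = 0.00799), 24 h (1.58 log2 units, adjusted p = 0.00911) and 72 h (2.91 log2 units, SE 0.21, adjusted p = 3.57e-06). Ccl8, encoded from 82115185 to 82116799 on the same chromosome and known as a late monocyte and lymphocyte attractant that acts on Ccr8 in the mouse, reached its high level at 72 h. It had 0, 0.377 and 0.332 FPKM in the sham mice and 0.9299, 0.347 and 0.787 in the 6 h mice. At 24 h Ccl8 had 1.104, 1.58 and 0.496 FPKM, and 56.2, 37.5 and 52.7 in the 72 h mice. The 72 h mice stood far above all others (5.33 log2 units, SE 0.17, adjusted p = 4.1e-08). On the log2(FPKM + 1) scale this was the largest difference from sham of any member for which a fold is given. In plain FPKM the ranking differs, as the mean of Ccl8 went from 0.237 in the sham mice to 48.8 at 72 h, and that of Cxcl2 from 0.129 to 63.5 at 24 h. The 24 h call of Ccl8 (0.71 log2 units, SE 0.22, adjusted p = 0.0423) was lost without sham mouse 1, 2 or 3 and without 24 h mouse 1 or 2, with adjusted p of 0.0818 to 0.135.

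Ccr2 was called from 6 h on and was highest at 72 h. It had 0.602, 0.791 and 0.521 FPKM in the sham mice and 0.786, 0.395 and 0.779 in the 1 h mice. At 6 h Ccr2 had 3.22, 1.73 and 2.94 FPKM. Levels were 12.1, 15.4 and 27.4 FPKM in the 24 h mice and 34.8, 45.1 and 35.4 in the 72 h mice. The groups from 6 h on lay above sham without overlap, and each was above the one before it (6 h 1.13 log2 units, SE 0.17, adjusted p = 0.00468, 24 h 3.48 log2 units, SE 0.27, adjusted p = 0.00131, 72 h 4.58 log2 units, SE 0.12, adjusted p = 1.76e-08). Ccl2, Ccl7 and Ccl12 together gave 10.6 ± 1.33 FPKM in the sham mice, 21.8 ± 2.46 in the 1 h mice and 118 ± 26.1 in the 6 h mice (SD, n = 3). The sum was 178 ± 119.7 in the 24 h mice and 219.95 ± 92.5 in the 72 h mice. Monocyte markers were called at 6 h (5 of 5), 24 h (5 of 5) and 72 h (5 of 5), all higher.

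Ccl3 and Ccl4 are inflammatory attractants of monocytes and T cells, of which Ccl3 acts on Ccr1. Ccl3 was called higher from 1 h on and Ccl4 from 6 h on. Ccl3 had 0.239, 0.244 and 0.197 FPKM in the sham mice and 2.12, 2.68 and 2.51 in the 1 h mice. At 6 h Ccl3 had 7.89, 3.03 and 6.02 FPKM, and 2.65, 2.01 and 27.3 in the 24 h mice. At 72 h Ccl3 had 5.09, 8.72 and 5.77 FPKM. The 1 h mice were already above the sham mice (1.48 log2 units, SE 0.08, adjusted p = 0.000117), as were all later mice (6 h 2.36 log2 units, 24 h 2.47 log2 units, SE 0.79, adjusted p = 0.0455, 72 h 2.59 log2 units, SE 0.16, adjusted p = 1.36e-06). Ccl4 had 0.472, 0 and 0 FPKM in the sham mice and 2.11, 1.35 and 1.02 in the 1 h mice. At 6 h Ccl4 had 13.5, 2.88 and 10.8 FPKM, and 5.47, 1.15 and 29.4 in the 24 h mice. At 72 h Ccl4 had 7.48, 9.99 and 7.07 FPKM. All AMI mice from 1 h on exceeded the sham mice, of which 2 were listed at 0, but the 1 h test was not passed (1.11 log2 units, SE 0.199, adjusted p = 0.0732), and the calls were at 6 h (2.94 log2 units, SE 0.46, adjusted p = 0.00532), 24 h (2.72 log2 units, adjusted p = 0.0433) and 72 h (2.999 log2 units, adjusted p = 1.02e-06). Both 24 h calls were lost without sham mouse 1, 2 or 3, with adjusted p of 0.112 to 0.116 for Ccl3 and 0.0967 to 0.118 for Ccl4, and that of Ccl4 also without 24 h mouse 1 (adjusted p = 0.0753). At 1 h Ccl4 did pass the test without sham mouse 1 (adjusted p = 0.0412) or without 1 h mouse 3 (adjusted p = 0.0478). Ccl5, a T cell and monocyte attractant that binds Ccr1, had 0.237, 1.19 and 0.532 FPKM in the sham mice and 2.43, 1.11 and 0.542 in the 6 h mice. At 72 h Ccl5 had 3.94, 3.26 and 3.57 FPKM. Only at 72 h did its mice clear the sham range (1.51 log2 units, SE 0.19, adjusted p = 9.24e-05), where T cell markers summed to 3.17 to 5.28 FPKM beside 0.723 to 1.07 in the sham mice. Of these 6 markers, 1 reached the level for testing, and the part of T cells in the Ccl5 level was not tested.

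Ccl6 and Ccl9 are myeloid ligands of Ccr1 and rose from 6 h on. Ccl6 had 10.02, 10.8 and 10.6 FPKM in the sham mice and 106, 23.4 and 61.1 in the 6 h mice. At 24 h Ccl6 had 133, 83.8 and 314 FPKM, and 130.2, 137 and 119 in the 72 h mice. Ccl9 had 3.57, 3.201 and 3.19 FPKM in the sham mice and 17.2, 7.22 and 17.5 in the 6 h mice. At 24 h Ccl9 had 33.9, 24.6 and 70.9 FPKM, and 46.9, 49.8 and 44.96 in the 72 h mice. In both genes the mice from 6 h on lay above the sham mice, and at 72 h the 3 mice were close together (Ccl6 3.498 log2 units, SE 0.07, adjusted p = 1e-08, Ccl9 3.48 log2 units, SE 0.07, adjusted p = 1e-08). At 6 h the log2 fold changes were 2.25 (adjusted p = 0.0133) for Ccl6 and 1.702 (adjusted p = 0.00753) for Ccl9, and at 24 h they were 3.74 (adjusted p = 0.00289) and 3.21 (adjusted p = 0.00257).

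Ccr1, the receptor of Ccl3, Ccl6 and Ccl9 on neutrophils and monocytes, had 0.332, 0.699 and 0.399 FPKM in the sham mice and 18.3, 3.54 and 7.84 in the 6 h mice. At 24 h Ccr1 had 8.75, 5.41 and 30.6 FPKM, and 12.1, 17.1 and 13.3 in the 72 h mice. Its levels did not overlap with sham from 6 h on (6 h 2.64 log2 units, SE 0.46, adjusted p = 0.00727, 24 h 3.095 log2 units, SE 0.53, adjusted p = 0.00788, 72 h 3.35 log2 units, SE 0.14, adjusted p = 1.52e-07). Between 72 h and 6 h the test was not passed (0.71 log2 units, SE 0.45, adjusted p = 0.19, 95% interval -0.32 to 1.73) unless 6 h mouse 1 was left out (adjusted p = 0.00396). Ccr1 and Ccr2 lie on chromosome 9 (mm10), Ccr1 from 123962124 to 123968692 and Ccr2 from 124101950 to 124113557, on a chromosome that carries 14 of the 23 receptors.

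**Figure D3:**
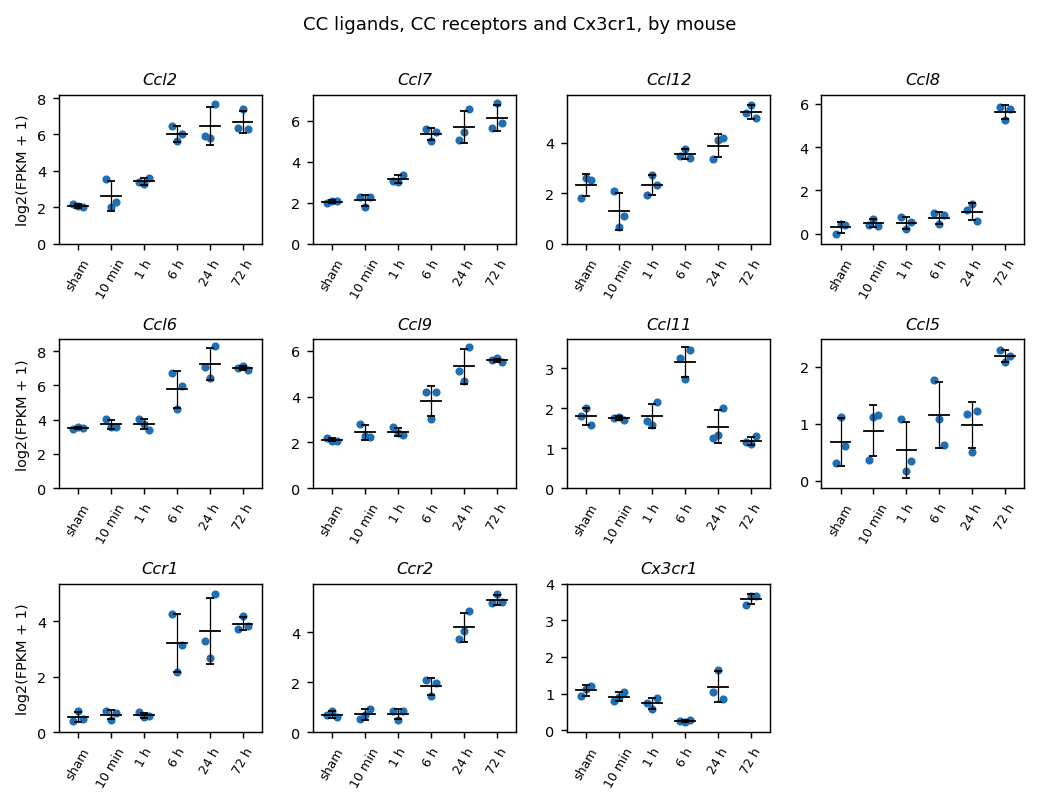
Expression of CC ligands, of Ccr1 and Ccr2 and of Cx3cr1 on the log2(FPKM + 1) scale (vertical axis) in the sham and 5 AMI groups (horizontal axis), where points are mice, the horizontal line is the mean and the error bar is the SD of 3 mice. Ccl2 and Ccl7 rise from 1 h, Ccl8 and Ccl5 stand out at 72 h, Ccl11 at 6 h, and Cx3cr1 dips to 0.164 to 0.214 FPKM at 6 h before its 72 h rise.

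Some CC ligands had a brief course. Ccl11, the eosinophil attractant eotaxin, had 2.48, 3.05 and 1.99 FPKM in the sham mice and 8.61, 5.69 and 10.02 in the 6 h mice. At 24 h Ccl11 had 1.41, 1.5002 and 3.04 FPKM, and 1.21, 1.15 and 1.45 in the 72 h mice. The 6 h mice lay above and the 72 h mice below all sham mice (6 h 1.36 log2 units, SE 0.202, adjusted p = 0.00417, 72 h -0.62 log2 units, SE 0.12, adjusted p = 0.00156), while at 24 h the groups overlapped (-0.27 log2 units, SE 0.22, adjusted p = 0.369) and the test was passed as lower without 24 h mouse 3 (adjusted p = 0.0326). Ccl24, the second eotaxin, had 2.18, 1.68 and 2.12 FPKM in the sham mice and 2.81, 2.04 and 3.83 in the 6 h mice. At 24 h Ccl24 had 5.32, 2.08 and 25.96 FPKM, and 3.87, 2.51 and 2.81 in the 72 h mice. It was not called at 24 h (1.43 log2 units, SE 0.702, adjusted p = 0.142), where mouse 3 alone stood at 25.96 FPKM, and it passed without 24 h mouse 2 (adjusted p = 0.0396). At 72 h its call (0.43 log2 units, SE 0.13, adjusted p = 0.0172) was lost without sham mouse 2 (adjusted p = 0.0629) and after median-of-ratios scaling (adjusted p = 0.212), and its sign turned after quantile normalization (-0.11 log2 units). Ccr3, the receptor of both eotaxins, had at most 0.130 FPKM, and Ccl26, the third eotaxin, was listed at 0 in all 18 mice.

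Ccl17 and Ccl22, which attract T cells bearing Ccr4 and come largely from dendritic cells and macrophages, were near 0 in the sham group. Ccl17 had 0, 0.125 and 0 FPKM in the sham mice and 2.31, 1.28 and 1.63 in the 6 h mice. At 24 h Ccl17 had 3.59, 1.71 and 7.88 FPKM, and 0.828, 1.19 and 1.16 in the 72 h mice. Its AMI mice from 6 h on were all above the sham mice (6 h 1.38 log2 units, SE 0.14, adjusted p = 0.00127, 24 h 2.21 log2 units, SE 0.39, adjusted p = 0.00825, 72 h 0.98 log2 units, SE 0.11, adjusted p = 3.99e-05). Ccl22 had 0.0694, 0 and 0 FPKM in the sham mice and 0.188, 0.0837 and 0.347 in the 6 h mice. At 24 h Ccl22 had 1.14, 0.917 and 2.88 FPKM, and 0.7997, 0.841 and 0.529 in the 72 h mice. It was not called at 6 h (adjusted p = 0.113) and rose at 24 h (1.298 log2 units, SE 0.25, adjusted p = 0.0114) and 72 h (0.75 log2 units, SE 0.103, adjusted p = 0.00017). Ccr4 had at most 0.0520 FPKM and was listed at 0 in 13 mice. Cxcl14, a CXC ligand of healthy epithelium and stroma whose receptor is not settled, was high throughout and had 18.3, 16.9 and 22.4 FPKM in the sham mice and 38.9, 36.8 and 47.9 in the 6 h mice. At 24 h Cxcl14 had 15.4, 14.9 and 17.5 FPKM, and 20.2, 24.9 and 17.4 in the 72 h mice. It stood above the sham range at 6 h only (1.06 log2 units, SE 0.14, adjusted p = 0.00263), and it overlapped with sham at 24 h and 72 h.

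The ligands Cxcl16, Pf4 and Cx3cl1 had their largest difference from sham at 72 h. Cxcl16, made by macrophages and endothelium in a membrane-bound form and shed by proteases, had 13.8, 14.9 and 17.4 FPKM in the sham mice and 15.8, 12.5 and 16.5 in the 6 h mice. At 24 h Cxcl16 had 17.1, 22.7 and 24.7 FPKM, and 167, 149.8 and 201 in the 72 h mice. At 72 h it lay far above all other groups (3.403 log2 units, SE 0.12, adjusted p = 6.2e-08), and at 24 h the test was not passed (0.45 log2 units, SE 0.15, adjusted p = 0.0538) unless 24 h mouse 1 was left out (adjusted p = 0.0122). Exons of Zmynd15 overlap those of Cxcl16 on the other strand, and the counting is not stated to use strand. Its receptor Cxcr6, found on T cells and NKT cells, was called from 6 h on. T cell markers summed to 0.723 to 1.07 FPKM in the sham mice, 1.49 to 1.78 at 24 h and 3.17 to 5.28 at 72 h. The part of T cells in the Cxcr6 level was not tested. Cxcr6 had 0.148, 0.0505 and 0.0444 FPKM in the sham mice and 0.796, 0.476 and 0.316 in the 6 h mice. At 24 h Cxcr6 had 5.19, 8.83 and 9.49 FPKM, and 5.02, 10.9 and 6.45 in the 72 h mice. The Cxcr6 mice of these 3 AMI groups exceeded the sham mice (6 h 0.49 log2 units, SE 0.12, adjusted p = 0.0251, 24 h 2.995 log2 units, SE 0.204, adjusted p = 0.000926, 72 h 2.91 log2 units, SE 0.22, adjusted p = 3.86e-06), but its 6 h call was lost without sham mouse 1, 2 or 3 (adjusted p = 0.0601 to 0.0861).

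Pf4, a ligand stored in platelets and also made by macrophages, had 15.6, 15.6 and 19.5 FPKM in the sham mice and 30.1, 13.5 and 22.3 in the 6 h mice. At 24 h Pf4 had 48.6, 41.7 and 89.5 FPKM, and 177, 193 and 196 in the 72 h mice. The 24 h mice (1.696 log2 units, SE 0.27, adjusted p = 0.00667) and the 72 h mice (3.41 log2 units, SE 0.09, adjusted p = 2.29e-08) lay above all sham mice, while the 6 h mice spread around them (0.299 log2 units, SE 0.26, adjusted p = 0.4). Platelet markers at 72 h summed to 1.95 to 2.16 FPKM and macrophage markers to 1252 to 1558, and their part in the Pf4 level was not tested. Without 6 h mouse 2 Pf4 also passed the test at 6 h (adjusted p = 0.0371). Cx3cl1, the membrane-bound ligand fractalkine, had 2.43, 2.49 and 2.55 FPKM in the sham mice and 2.65, 2.32 and 1.66 in the 6 h mice. At 24 h Cx3cl1 had 2.404, 3.69 and 3.74 FPKM, and 7.34, 8.98 and 6.31 in the 72 h mice. It rose at 72 h (1.28 log2 units, SE 0.11, adjusted p = 1.17e-05), and without 24 h mouse 1 it also passed the test at 24 h (adjusted p = 0.0164). Cx3cr1, its receptor on patrolling monocytes and resident macrophages, had 0.902, 1.19 and 1.31 FPKM in the sham mice and 0.676, 0.497 and 0.825 in the 1 h mice. At 6 h Cx3cr1 had 0.195, 0.164 and 0.214 FPKM, and 1.07, 2.15 and 0.803 in the 24 h mice. At 72 h Cx3cr1 had 9.796, 11.7 and 11.7 FPKM. All 6 h mice lay below and all 72 h mice above the sham mice, so the receptor fell at 6 h (-0.84 log2 units, SE 0.096, adjusted p = 0.0018) and rose at 72 h (2.503 log2 units, SE 0.11, adjusted p = 1.59e-07). At 6 h the macrophage marker sum overlapped with sham, with 2 of its 6 genes called higher and 1 lower. From sham to 6 h, mean FPKM was lower for C1qa (84.5 to 73.5), Csf1r (45.3 to 32.9) and Adgre1 (1.28 to 0.862). It was higher for Mrc1 (9.77 to 16.9), Cd68 (5.54 to 9.07) and Fcgr1 (2.29 to 4.01). The part of macrophage content in the fall of Cx3cr1 was not tested. Exons of Gm33858 overlap those of Cx3cr1 on the other strand.

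Cxcl9 and Cxcl10 are interferon-induced ligands of Cxcr3 that attract activated T and NK cells. Cxcl10 had 0.0784, 0.401 and 0.292 FPKM in the sham mice and 1.65, 0.379 and 1.51 in the 6 h mice. At 24 h Cxcl10 had 0.984, 0.754 and 6.49 FPKM, and 11.2, 14.1 and 10.4 in the 72 h mice. It passed the test at 72 h (3.36 log2 units, SE 0.14, adjusted p = 1.23e-07), with 6 h (0.74 log2 units, SE 0.25, adjusted p = 0.0604) and 24 h (1.25 log2 units, SE 0.52, adjusted p = 0.0957) short of it, although without 6 h mouse 2 the 6 h test was passed (adjusted p = 0.0047), as was the 24 h test without 24 h mouse 3 (adjusted p = 0.0195). Its promoter is shown for the 2 kappaB matches that overlap in it, GGGGACTTCC and GGGACTTCCC, starting 104 and 103 bases before the start of transcription, in capitals on the minus strand of RefSeq GRCm38.p6.
Cxcl10, chr5:92348920-92349009: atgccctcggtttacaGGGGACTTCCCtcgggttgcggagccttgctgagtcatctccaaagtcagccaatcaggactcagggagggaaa
Exons of Art3 overlap those of Cxcl10 on the other strand. Cxcl9, encoded beside it, had 6.37, 6.53 and 7.72 FPKM in the sham mice and 6.46, 5.56 and 3.94 in the 6 h mice. At 24 h Cxcl9 had 1.82, 2.199 and 1.13 FPKM, and 7.45, 4.35 and 5.38 in the 72 h mice. It fell at 24 h, when all mice lay below the sham mice (-1.55 log2 units, SE 0.17, adjusted p = 0.00265), and its levels overlapped with sham at 72 h (-0.25 log2 units, SE 0.16, adjusted p = 0.18), where it passed as lower without 72 h mouse 1 (adjusted p = 0.013). It also passed as lower at 72 h after median-of-ratios scaling (-0.52 log2 units, adjusted p = 0.0192) and quantile normalization (-0.70 log2 units, adjusted p = 0.00533). Cxcr3 had 0.0693, 0.177 and 0 FPKM in the sham mice and 0.123, 0.139 and 0.2397 in the 24 h mice. At 72 h Cxcr3 had 0.914, 0.573 and 1.13 FPKM. It rose at 72 h (0.78 log2 units, SE 0.13, adjusted p = 0.000529), close to the level below which genes were not tested, and after quantile normalization the call was lost (0.29 log2 units, adjusted p = 0.0904). Cxcl11, the third ligand of Cxcr3, is annotated in GENCODE M21 as a polymorphic pseudogene and reached 0.0585 FPKM at most.

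**Figure D4:**
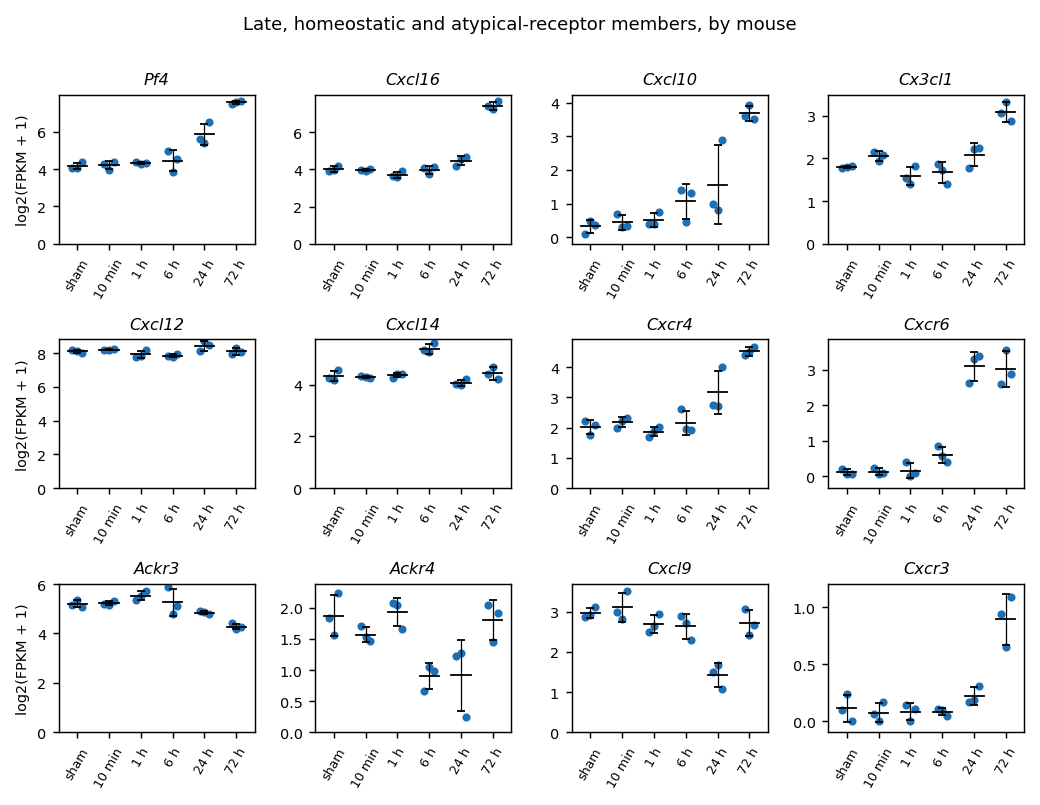
Expression of Pf4, Cxcl16, Cxcl10, Cx3cl1, Cxcl12, Cxcl14, Cxcr4, Cxcr6, Ackr3, Ackr4, Cxcl9 and Cxcr3 on the log2(FPKM + 1) scale (vertical axis) in the sham and 5 AMI groups (horizontal axis), where points are mice, the horizontal line is the mean and the error bar is the SD of 3 mice. Pf4, Cxcl16, Cxcl10 and Cx3cl1 are highest at 72 h, Cxcl12 keeps within 217 to 416 FPKM, and Ackr3 falls to 17.1 to 20.2 FPKM at 72 h.

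Cxcl12, the ligand that retains progenitors in bone marrow and is made by stroma and endothelium, had the highest level of all ligands in every group. It had 294, 277 and 261 FPKM in the sham mice and 217, 229 and 284 in the 1 h mice. At 6 h Cxcl12 had 223, 219.8 and 244 FPKM, and 276, 416 and 353 in the 24 h mice. At 72 h Cxcl12 had 243, 318 and 264 FPKM. The 6 h mice lay just below the sham mice (-0.28 log2 units, SE 0.08, adjusted p = 0.0356), and no other time was called. The call was lost under 9 of 14 alternative settings, among them leaving out any 1 of the sham mice (adjusted p = 0.0683 to 0.145), 6 h mouse 1 (adjusted p = 0.0714) or 6 h mouse 2 (adjusted p = 0.0664). Without 24 h mouse 1 the 24 h value, 0.47 log2 units, passed the test as higher (adjusted p = 0.0168). Its share of the summed ligand FPKM was 71.6% ± 3.77 in the sham mice, 34.2% ± 9.29 at 6 h and 22.9% ± 0.855 at 72 h (SD, n = 3), as the sum of all ligands went from 387 ± 4.47 to 704 ± 194 and 1198 ± 128 FPKM. At 72 h Pf4 made up 15.8% ± 1.39 and Cxcl16 14.6% ± 3.28 of that sum.

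Cxcl12 has a signalling receptor, Cxcr4, and a scavenging receptor, Ackr3, and these moved in opposite directions. Cxcr4, borne by most leukocytes, had 3.66, 2.39 and 3.22 FPKM in the sham mice and 5.06, 2.86 and 2.78 in the 6 h mice. At 24 h Cxcr4 had 5.79, 5.64 and 14.95 FPKM, and 19.96, 21.5 and 24.6 in the 72 h mice. Its mice were above sham at 24 h (1.14 log2 units, SE 0.34, adjusted p = 0.0371) and 72 h (2.501 log2 units, SE 0.13, adjusted p = 4.43e-07), with the 24 h call lost without sham mouse 1, 2 or 3 (adjusted p = 0.0835 to 0.118). Ackr3, expressed on endothelium, had 34.7, 39.8 and 32.7 FPKM in the sham mice and 39.9, 44.9 and 51.3 in the 1 h mice. At 6 h Ackr3 had 57.9, 26.6 and 33.3 FPKM, and 29.1, 28.01 and 26.3 in the 24 h mice. At 72 h Ackr3 had 20.2, 17.1 and 18.1 FPKM. It fell at 24 h (-0.35 log2 units, SE 0.098, adjusted p = 0.0317) and 72 h (-0.91 log2 units, SE 0.09, adjusted p = 2.49e-05), where the groups lay below sham without overlap. The 24 h call of Ackr3 was lost without sham mouse 1, 2 or 3 (adjusted p = 0.0589 to 0.116) or 24 h mouse 2 (adjusted p = 0.0615). The 5 endothelial markers summed to 519 to 612 FPKM in the sham mice and 506 to 641 at 72 h, when 2 were called lower (Kdr, from a mean of 60.6 to 32.2 FPKM, and Tie1, from 81.6 to 61.2 FPKM) and 1 higher (Vwf, from 149 to 203 FPKM). The 3 lymphatic endothelial markers summed to 50.5 to 61.2 FPKM in the sham mice and 36.2 to 50.7 at 72 h, when 1 was called lower. The part of endothelial content in the fall of Ackr3 was not tested. Ackr3 was the receptor with the highest mean from the sham group to 24 h, and at 72 h Ccr2 and Cxcr4 had higher means.

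Ccl19 and the Ccl21 genes are ligands of Ccr7, which guides dendritic cells and naive T cells to lymph nodes, and are removed by Ackr4. Ccl19 had 0.184, 0.0335 and 0.1002 FPKM in the sham mice and 1.204, 0.783 and 1.1796 in the 6 h mice. At 24 h Ccl19 had 0.189, 0.258 and 0.119 FPKM, and 0.402, 0.896 and 0.5703 in the 72 h mice. It rose at 6 h (0.89 log2 units, SE 0.11, adjusted p = 0.00239) and 72 h (0.54 log2 units, SE 0.13, adjusted p = 0.00377), and after quantile normalization the 72 h call was lost (adjusted p = 0.858). Ccr7 had 0.127, 0.194 and 0.0859 FPKM in the sham mice and 1.17, 0.336 and 0.3205 in the 6 h mice. At 72 h Ccr7 had 1.25, 1.105 and 1.46 FPKM. It rose at 72 h (0.997 log2 units, SE 0.096, adjusted p = 1.83e-05). Ackr4 had 2.57, 1.95 and 3.69 FPKM in the sham mice and 0.579, 1.08 and 0.984 in the 6 h mice. At 24 h Ackr4 had 1.34, 1.41 and 0.191 FPKM, and 3.12, 1.72 and 2.79 in the 72 h mice. It fell at 6 h (-0.98 log2 units, SE 0.19, adjusted p = 0.0102) and 24 h (-0.96 log2 units, SE 0.303, adjusted p = 0.0443) and overlapped with sham at 72 h, and the 24 h call was lost without sham mouse 1, 2 or 3 (adjusted p = 0.0719 to 0.133). Exons of Acad11 overlap those of Ackr4 on the other strand. After quantile normalization Ackr4 passed as lower at 72 h (-0.60 log2 units, adjusted p = 0.0196).

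The Ccl21 genes are near-identical copies on chromosome 4, and the values of single copies are uncertain. Ccl21a had 0.0835, 13.5 and 10.97 FPKM in the sham mice and 6.72, 0.501 and 7.02 in the 6 h mice. At 72 h Ccl21a had 22.1, 12.03 and 1.176 FPKM. Within every group it was low in some mice and high in others. Gm1987, another copy that was chosen after its values were seen, had 7.18, 0.171 and 0.140 FPKM in the sham mice and was high exactly where Ccl21a was low. The sum of all copies in the table was 13.0 ± 4.21 FPKM in the sham mice, 7.62 ± 1.25 at 6 h and 23.1 ± 7.28 at 72 h (SD, n = 3). Ccl21a itself was not called at any time, with a log2 fold change of 0.601 and an SE of 1.1002 at 72 h. Ccl21b had 1.28, 3.18 and 2.397 FPKM in the sham mice and 1.398, 0.971 and 1.14 in the 6 h mice. At 72 h Ccl21b had 4.48, 2.404 and 3.85 FPKM. It was not called against sham (72 h 0.49 log2 units, SE 0.24, adjusted p = 0.0897). Its largest difference, at 24 h (-0.77 log2 units, SE 0.27, adjusted p = 0.062), passed as lower with all 18 mice in 1 fit (adjusted p = 0.0104), after median-of-ratios scaling (adjusted p = 0.0478) or quantile normalization (adjusted p = 0.0386), and with the replicate block (adjusted p = 0.0499). Further, without sham mouse 1 it passed the test as lower at 6 h (adjusted p = 0.0233), and at 72 h it passed as higher without sham mouse 2 (adjusted p = 0.0302) or 72 h mouse 2 (adjusted p = 0.0297).

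**Figure D5:**
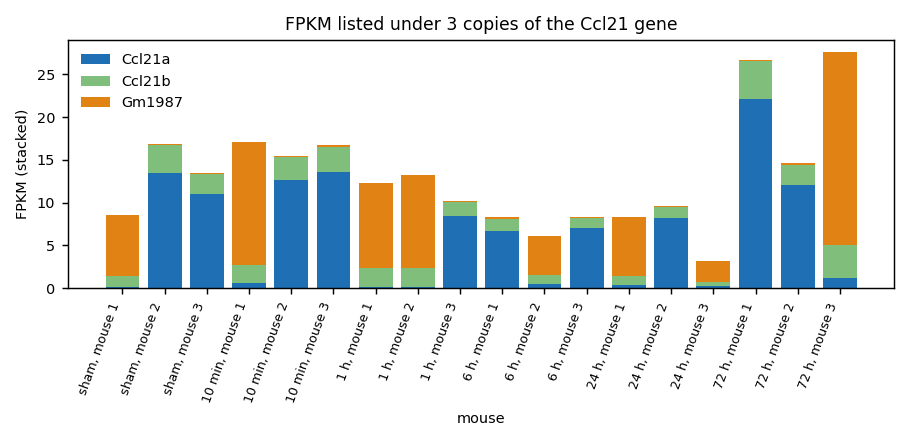
Stacked bars of the FPKM listed under Ccl21a, Ccl21b and Gm1987 (vertical axis, starting at 0) in each of the 18 mice (horizontal axis). Within every group at least 1 mouse has most of its signal under Gm1987 and at least 1 other under Ccl21a, for example 7.18 FPKM under Gm1987 in sham mouse 1 and 13.5 FPKM under Ccl21a in sham mouse 2.

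Among the remaining tested members, Ccl27a, a skin ligand of Ccr10, had 5.26, 5.098 and 5.26 FPKM in the sham mice and 4.57, 3.41 and 3.39 in the 72 h mice and fell at 72 h (-0.38 log2 units, SE 0.11, adjusted p = 0.00924). It has a near-identical copy, Ccl27b, and exons of Il11ra1 overlap it on the other strand, so its level is uncertain. Ccl25, a ligand of Ccr9 in thymus and gut, had 0.915, 0.439 and 1.01 FPKM in the sham mice and 1.002, 1.13 and 1.399 in the 72 h mice and was not called against sham (72 h adjusted p = 0.0854).

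The 23 members below the level for testing were Ccl1, Ccl20, Ccl21c, Ccl26, Ccl27b, Ccl28, Cxcl11, Cxcl13, Cxcl15, Cxcl17 and Xcl1 among ligands and Ackr1, Ackr2, Ccr1l1, Ccr3, Ccr4, Ccr6, Ccr8, Ccr9, Ccr10, Cxcr1, Cxcr5 and Xcr1 among receptors. The closest to the limit were Cxcl13, a B cell attractant, with a highest value of 0.687 FPKM, Ccr10 with 0.679 and Cxcr5 with 0.664. Just inside the limit were Cxcr3, with a highest value of 1.13 FPKM, Ccl19 with 1.204, Ccl25 with 1.399 and Ccr7 with 1.46. Ackr1, which presents chemokines on venules and red cells, reached 0.483 FPKM, and Ackr2, a scavenger of CC ligands, reached 0.652.

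A direct comparison of 72 h with 6 h asked which members differed between the early and the late stage. At 72 h 13 ligands and 8 receptors were higher and 6 ligands and 2 receptors lower than at 6 h, where 67.1% of all genes tested were called, 50.3% higher and 16.7% lower. After median-of-ratios scaling the members numbered 17 higher and 11 lower, and after quantile normalization 14 and 12, in place of 21 and 8. All genes were then 32% higher and 30.3% lower, and 28.5% and 34.9%. The ligands that were lower were Cxcl2 (-3.09 log2 units, SE 0.52, adjusted p = 0.00103), Cxcl1 (-3.04 log2 units, SE 0.43, adjusted p = 0.000389), Cxcl3 (-2.85 log2 units, SE 0.56, adjusted p = 0.00219), Cxcl5 (-2.07 log2 units, SE 0.301, adjusted p = 0.000439), Ccl11 (-1.97 log2 units) and Cxcl14 (-0.96 log2 units). The receptors that were lower were Cxcr2 (-1.71 log2 units, SE 0.6002, adjusted p = 0.034) and Ackr3 (-0.98 log2 units, SE 0.25, adjusted p = 0.00828). The call of Cxcr2 was lost without 6 h mouse 3 and without 72 h mouse 1, 2 or 3, with adjusted p of 0.0512 to 0.0934. Also lost without single mice of these groups were the calls of Ccl6 (adjusted p = 0.0702 to 0.0958), Ccl7 (adjusted p = 0.0619 to 0.134), Ccl25 (adjusted p = 0.0506 to 0.0994) and Ccr7 (adjusted p = 0.0624 to 0.131). Of these 4, Ccr7 had ranges at 6 h and 72 h that overlapped, while those of Ccl6, Ccl7 and Ccl25 did not.

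Among the members with the largest rises from 6 h to 72 h were Ccl8 (4.88 log2 units, SE 0.19, adjusted p = 6.01e-07), Ccr2 (3.46 log2 units, SE 0.18, adjusted p = 2.06e-06), Cxcl16 (3.45 log2 units, SE 0.15, adjusted p = 8.33e-07), Cx3cr1 (3.34 log2 units, SE 0.11, adjusted p = 3.31e-07) and Pf4 (3.11 log2 units, SE 0.24, adjusted p = 1.42e-05). Other rises were those of Cxcl10 (2.62 log2 units), Cxcr6 (2.42), Cxcr4 (2.36), Ccl9 (1.78), Ccl12 (1.67) and Cx3cl1 (1.41). Ccl2 did not pass the test (0.66 log2 units, SE 0.32, adjusted p = 0.0985, 95% interval -0.07 to 1.39), and passed it without 6 h mouse 1 (adjusted p = 0.0392). Short of it were also Ccl3 (0.22), Ccl4 (0.06) and Ppbp (0.34 log2 units), of which Ppbp passed without 6 h mouse 1 (adjusted p = 0.0166). The value of Ccl4 turned to -0.53 without 6 h mouse 2 (adjusted p = 0.0265). Quantile normalization ended the calls of Ccl22 (0.08 log2 units, adjusted p = 0.601), Ccl5 (0.46, adjusted p = 0.159), Ccl21b (0.47, adjusted p = 0.0538), Ackr4 (0.35, adjusted p = 0.135) and Ccr7 (0.03, adjusted p = 0.916) between these times. Median-of-ratios scaling ended those of Ccl6 (0.84, adjusted p = 0.141), Ccl7 (0.36, adjusted p = 0.303), Ccl25 (0.17, adjusted p = 0.24) and Ccr7 (0.34, adjusted p = 0.192). Ccl17, Ccl19 and Ccl27a, not called as deposited, passed as lower after either scaling. Between these times 4 of 5 neutrophil markers were lower and all 6 macrophage markers higher, and their part in these differences was not tested.

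Genes around the receptors were read from lists. Of 28 genes that carry the signal below the receptors (G protein subunits, kinases, Rac regulators, arrestins and RGS proteins), 1 was called at 10 min, none by limma at 1 h, 7 higher and 1 lower at 6 h, 24 higher at 24 h and 28 higher at 72 h. Of all genes, 11.6% were higher and 16.8% lower at 6 h, 26.2% were higher at 24 h and 53.1% at 72 h. The gene called at 10 min was Rgs2, a brake on G protein signalling (0.84 log2 units, SE 0.11, adjusted p = 0.0369). At 72 h the tyrosine kinase Fgr (4.01 log2 units) and the leukocyte GTPase Rac2 (3.53 log2 units) were among the higher genes, and at 6 h Rgs16 (2.16 log2 units, SE 0.25, adjusted p = 0.00196) and Fgr (1.99 log2 units, SE 0.37, adjusted p = 0.0096) rose. The median log2 fold change of this list was 0.21 at 6 h, 0.81 at 24 h and 1.71 at 72 h. Of 8 proteases that trim or shed chemokines, 3 were higher and 2 lower at 6 h, 4 higher and 2 lower at 24 h, and all 8 were higher at 72 h. The shares over all genes were 11.6% higher and 16.8% lower (6 h), 26.2% and 11.4% (24 h), and 53.1% and 24.2% (72 h).

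Dpp4, which inactivates Cxcl12 and other ligands by cutting their ends, fell at 6 h (-0.83 log2 units, SE 0.11, adjusted p = 0.00268) and 24 h (-1.102 log2 units, SE 0.13, adjusted p = 0.00289) and rose at 72 h (0.76 log2 units, SE 0.14, adjusted p = 0.00101). Mmp12, a macrophage protease that cuts ELR ligands, rose at 24 h (1.73 log2 units, SE 0.19, adjusted p = 0.00276) and 72 h (4.23 log2 units, SE 0.097, adjusted p = 1.36e-08). Adam10 and Adam17, which shed Cxcl16 and Cx3cl1, rose at 72 h by 1.26 and 1.31 log2 units. Of 9 related chemoattractant genes outside the symbol rule, 4 were higher and 2 lower at 6 h, 3 higher at 24 h, and 8 higher and 1 lower at 72 h. Beside these, 11.6% of all genes were higher and 16.8% lower at 6 h. The shares of all genes were 26.2% and 11.4% at 24 h, and 53.1% and 24.2% at 72 h. The complement receptor C3ar1 rose at 72 h (4.65 log2 units, SE 0.08, adjusted p = 8.73e-09), and Ccrl2, an atypical receptor that presents chemerin, fell (-0.92 log2 units, SE 0.07, adjusted p = 4.42e-06).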

How the data were processed

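RNA sequencing of heart tissue from 18 mice was read from 1 table of FPKM values. Per the study's methods and the submitters' processing notes, the authors trimmed reads with cutadapt 1.18, aligned them to mm10 with HISAT2 2.1.0 and estimated FPKM with StringTie 1.3.4d before they deposited the table; the annotation and the use of strand are not given in the sources used here. Groups came from the sample titles. In the table, 4 column names carry what look like typing slips and were matched by their closest title, and 25 symbols had been turned into dates. Fragment counts were not used, so a count test was not possible and precision rests on the 3 mice of each group; where nothing states otherwise, each mouse is 1 library.

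FPKM values were analysed on the log2(FPKM + 1) scale with limma 3.58.1 (R 4.3.3), with a variance trend, in separate fits for each AMI group against sham and for 72 h against 6 h. The authors' own test could not be repeated on FPKM, and limma stands in for it. A gene was tested if any mouse reached an FPKM of 1, and Benjamini-Hochberg adjustment of the p-values covered every gene tested. Two-sided tests were used throughout. For members called at 1 or more time points, values of single mice are given for the sham group and for chosen AMI groups, not always for all of them. Members and gene lists were chosen with earlier results of these data known. Alternatives were a pseudocount of 0.1, quantile normalization, other filters, a replicate block, scaling by median-of-ratios, no variance trend, 1 fit to all 18 mice and leaving out each mouse. The procedure was tested on simulated data. Counts over members include 1 gene whose values are not reported here. Mice with the same number did not deviate together (correlations -0.327 to 0.0822), so numbers were not taken as pairs. Positions came from GENCODE M21 on mm10, which held 63 of the 64 members, and promoters from RefSeq on GRCm38.p6. Figures were drawn with matplotlib 3.10.9 in Python 3.11.15.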

Additional observations from a re-analysis of the deposited data

Results flagged for a closer look

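For the members below the difference from sham was not the same at 6 h and at 72 h, by the direct limma comparison of 72 h with 6 h. The values are differences in log2 units, positive where 72 h was higher. Among ligands they were -3.09 for Cxcl2, -3.04 for Cxcl1, -2.85 for Cxcl3, -2.07 for Cxcl5, -1.97 for Ccl11 and -0.96 for Cxcl14. Higher at 72 h were Ccl8 (4.88), Cxcl16 (3.45), Pf4 (3.11), Cxcl10 (2.62), Ccl9 (1.78), Ccl12 (1.67), Cx3cl1 (1.41), Ccl6 (1.25), Ccl21b (1.05), Ccl5 (1.03), Ccl7 (0.76), Ccl22 (0.52) and Ccl25 (0.36). Among receptors the values were -1.71 for Cxcr2 and -0.98 for Ackr3. Higher at 72 h were Ccr2 (3.46), Cx3cr1 (3.34), Cxcr6 (2.42), Cxcr4 (2.36), Ackr4 (0.9), Cxcr3 (0.81) and Ccr7 (0.53). After quantile normalization the calls of Ccl22 (0.08 log2 units, adjusted p = 0.601), Ccl5 (0.46, adjusted p = 0.159), Ccl21b (0.47, adjusted p = 0.0538), Ackr4 (0.35, adjusted p = 0.135), Ccr7 (0.03, adjusted p = 0.916), Ccl7 (0.59, adjusted p = 0.11) and Ccl25 (-0.14, adjusted p = 0.318) were lost, and after median-of-ratios scaling those of Ccl6 (0.84, adjusted p = 0.141), Ccl7, Ccl25 and Ccr7. Groups of 3 mice were too small for a test of single outlying mice.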

How the results depend on the processing

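With all 18 mice in 1 fit, 1 member was called higher at 1 h in place of 5, where all genes called numbered 53 in place of 96. Median-of-ratios scaling and quantile normalization each gave 5 members lower in place of 3 at 24 h and at 72 h. With the replicate block, no member was called at 10 min, and members higher and lower numbered 6 and 0 (1 h), 21 and 2 (6 h), 23 and 2 (24 h), 31 and 3 (72 h), and 19 and 8 (72 h against 6 h), while mice of the same number were not shown to be paired. Over all genes, the block fits called 29 (10 min), 85 (1 h), 2839 (6 h), 4182 (24 h), 10215 (72 h) and 8087 (72 h against 6 h). The main fits called 46, 96, 3776, 5012, 10307 and 8941 genes in the same order. Leaving out 1 mouse at a time gave 0 to 1 members higher in the 10 min comparison (1 without 10 min mouse 2) and 5 to 6 in that of 1 h. It gave 18 to 25 higher and 2 to 3 lower for 6 h, 14 to 23 higher and 1 to 4 lower for 24 h (14 and 1 without sham mouse 1, 2 or 3), 31 to 32 higher and 3 to 4 lower for 72 h, and 17 to 24 higher and 7 to 11 lower for 72 h against 6 h. Over all genes, these fits called 0 to 65 genes (10 min), 72 to 177 (1 h) and 1640 to 4423 (6 h). The later ranges were 1628 to 5839 (24 h), 9700 to 10186 (72 h) and 7768 to 8862 (72 h against 6 h). The median of all genes at 24 h was 0.13 log2 units as deposited, 0.01 after median-of-ratios scaling and -0.06 after quantile normalization. After quantile normalization the sign turned for Ccl24 at 72 h (-0.11 log2 units) and for 72 h against 6 h in Ccl24 (-0.50) and Ccl25 (-0.14). For Ccl4, 72 h against 6 h ran from -0.53 to 0.43 when single mice were left out. Calls kept under every alternative run were 1 of 5 (1 h), 20 of 24 (6 h), 15 of 25 (24 h), 29 of 34 (72 h) and 20 of 29 (72 h against 6 h). With all 18 mice in 1 fit the 72 h calls of Cxcl2 (adjusted p = 0.122) and Cxcl3 (adjusted p = 0.328) were lost, while their log2 fold changes were the same as in the main fit. The cause of these shifts was not tested. Depth in fragments is unknown, so what depth limits could not be given.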
